A study of Mus musculus with 18 samples.

Results

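The transcripts of 10 enzymes of glycogen breakdown and glycolysis were followed in mouse myofibers: Pygm, Pfkm, Aldoa, Gapdh, Tpi1, Pgk1, Pgam2, Eno3, Ldha and Ldhb. The members were every probe, control probes excluded, that the array files assign to 1 of these gene names, which gave 19 of 55681 probe names and 10 of 35527 gene names. The 18 arrays formed 6 groups of 3, the cytoplasmic and the nuclear fraction of myofibers from the soleus, the extensor digitorum longus (EDL) and the tibialis anterior (TA). All groups came from untreated CD1 female mice of 3 months with no engineered allele, 9 mice in all. Each array held the RNA of 1 pool of 5 to 10 intact fibers picked by hand after collagenase digestion, lysed in detergent and divided by centrifugation. EDL and soleus samples with the same replicate number came from the same pair of mice, in both fractions. TA cytoplasm replicates 1 and 2 had a mouse in common, replicates 1 and 2 of TA cytoplasm and TA nuclei shared a mouse by number, and TA nuclei replicate 3 and TA cytoplasm replicates 1 and 2 shared mice with EDL and soleus pools. The 3 arrays of a group are therefore 3 fiber pools and not always 3 independent animals, the tests treat them as independent samples, and their small number limits the precision of every value. In such pools, fewer fibers carrying a transcript and less transcript per fiber cannot be told apart.

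Glycogen phosphorylase of muscle, the product of Pygm, releases glucose units from glycogen. Phosphofructokinase (Pfkm) commits the sugar phosphate to glycolysis, aldolase (Aldoa) splits it, triosephosphate isomerase (Tpi1) interconverts the pieces, and Gapdh, Pgk1, Pgam2 and Eno3 carry them through the steps that yield ATP on the way to pyruvate. Lactate dehydrogenase interconverts pyruvate and lactate. It is a tetramer of M subunits (Ldha), which prevail in fast glycolytic fibers, and H subunits (Ldhb), which prevail in oxidative tissue. EDL and TA are classed as fast muscles in mice and soleus as a slow, more oxidative one.

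All 19 probes were 60 bases long and read above background on all 18 arrays, with no saturated spot. Gapdh had 7 probes, Ldha 3, Tpi1 2 and the other genes 1 each. The probe of each gene with the highest mean over the arrays is called its leading probe. Of the 19, 10 shared a run of at least 20 bases with a probe of another gene name and 4 shared at least 30, so that transcripts of related sequences could contribute to them. The longest runs were 55 bases between Ldhb and Gm5514, 53 between Pgk1 and an entry named NAP096647-001, 43 between Gapdh probe A_55_P2186027 and Gm12070, and 33 between the leading Ldha probe and an unnamed entry. Both other Ldha probes, which carried the larger differences between soleus and EDL, shared no run of 20 bases, and they are shown with the single Pgam2 probe and the leading Gapdh probe, whose capitals mark the 24 bases it shared with Gm8055:
Ldha A_55_P2141876: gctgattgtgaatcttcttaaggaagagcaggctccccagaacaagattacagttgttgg
Ldha A_55_P2141878: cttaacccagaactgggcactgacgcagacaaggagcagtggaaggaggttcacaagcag
Pgam2 A_51_P264495: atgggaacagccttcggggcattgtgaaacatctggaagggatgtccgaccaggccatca
Gapdh A_55_P2088912: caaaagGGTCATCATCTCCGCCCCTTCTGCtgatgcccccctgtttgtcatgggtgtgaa

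The files place these probes on the mm9 assembly at chr7:54103010-54103069 and chr7:54107294-54107353 for Ldha (plus strand), chr11:5701822-5703040 for Pgam2 and chr6:125112979-125113038 for Gapdh (both minus strand). The leading Ldha probe lies farther along the same strand, at chr7:54110937-54110996. The Pgam2 span is longer than the probe itself. Gapdh probe A_55_P2037425 is placed on chromosome 8 while 5 others lie at full length on chromosome 6, and A_55_P1984284 is listed over chr6:125111848-125111866 only. The remaining leading probes were placed at chr19:6398389-6398448 for Pygm, chr15:97962713-97962772 for Pfkm, chr7:133938816-133938875 for Aldoa, chr6:124760947-124761006 for Tpi1, chrX:103398640-103398699 for Pgk1, chr11:70475953-70476012 for Eno3 and chr6:142438770-142438829 for Ldhb. Exon and UTR annotation of mm9 was not used here.

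The slow contractile markers set soleus apart from EDL and TA. The fast ones set EDL apart from soleus, while TA overlapped soleus in cytoplasm and EDL in nuclei. The summed signal of 7 slow contractile genes, on the log2 scale, was 16.83 to 17.51 on soleus arrays, 12.53 to 14.14 on EDL arrays and 10.93 to 13.84 on TA arrays. That of 9 fast genes was 17.92 to 18.37 in EDL, 17.28 to 18.18 in TA and 17.05 to 17.63 in soleus. In cytoplasm it was 17.92 to 18.07 in EDL, 17.28 to 17.79 in TA and 17.05 to 17.31 in soleus. The nuclear ranges were 18.17 to 18.37, 17.99 to 18.18 and 17.54 to 17.63. The summed signal of 3 nuclear RNAs was 12.37 to 13.77 in nuclei and 9.48 to 10.94 in cytoplasm. Arrays lay on 4 slides: slide 1 held the EDL and soleus cytoplasm and TA cytoplasm replicate 1, slide 2 the EDL and soleus nuclei, slide 3 TA cytoplasm replicate 2 and the TA nuclei, and slide 4 TA cytoplasm replicate 3. Replicates correlated at 0.985 to 0.992 in nuclei and at 0.906 to 0.971 in cytoplasm, across probes, and the labels do not say whether the nuclear pools were extracted apart. Over its 10 spots Pfkm varied within an array with an SD of 0.0479 to 0.0864 log2 units between single spots, before scaling. Between arrays of a group the SD of its 10-spot mean, after scaling, was 0.0303 to 0.0332 in nuclei and 0.172 to 0.23 in cytoplasm. A mean of 10 spots varies less than a single spot, so the SDs within and between arrays cannot be compared directly.

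The first comparison asked how the enzyme transcripts differed between a slow and a fast muscle. Of the 18 probes other than Ldhb, 18 read lower in soleus than in EDL in the cytoplasm, by 1.17- to 2.39-fold, and 18 in the nuclei, by 1.15- to 2.44-fold. Ldhb read 3.58-fold higher in soleus cytoplasm and 4.56-fold higher in soleus nuclei. After adjustment over all probes (limma, Benjamini-Hochberg, adjusted p under 0.05), 1 probe rose and 2 fell in the cytoplasm, where 0.853% of 45470 probes rose and 0.57% fell. In the nuclei 1 rose and 4 fell, against 0.978% and 0.579% of 44568 probes. In each fraction 15 of the 19 had an unadjusted p under 0.05, beside 6552 of 45470 probes in cytoplasm and 4259 of 44568 in nuclei. The ranges of the groups did not overlap, with soleus lower, for 16 probes in the cytoplasm and 18 in the nuclei, a pattern shown by 8.64% and 17.4% of all probes. The median difference of the 10 leading probes was −0.55 log2 units in the cytoplasm and −0.46 in the nuclei, beside −0.08 and 0.02 over all probes tested, and it stayed below 0 under the other scalings between arrays (−0.57 and −0.74 with the 75th percentile, −0.82 and −0.40 with none).

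**Figure D1:**
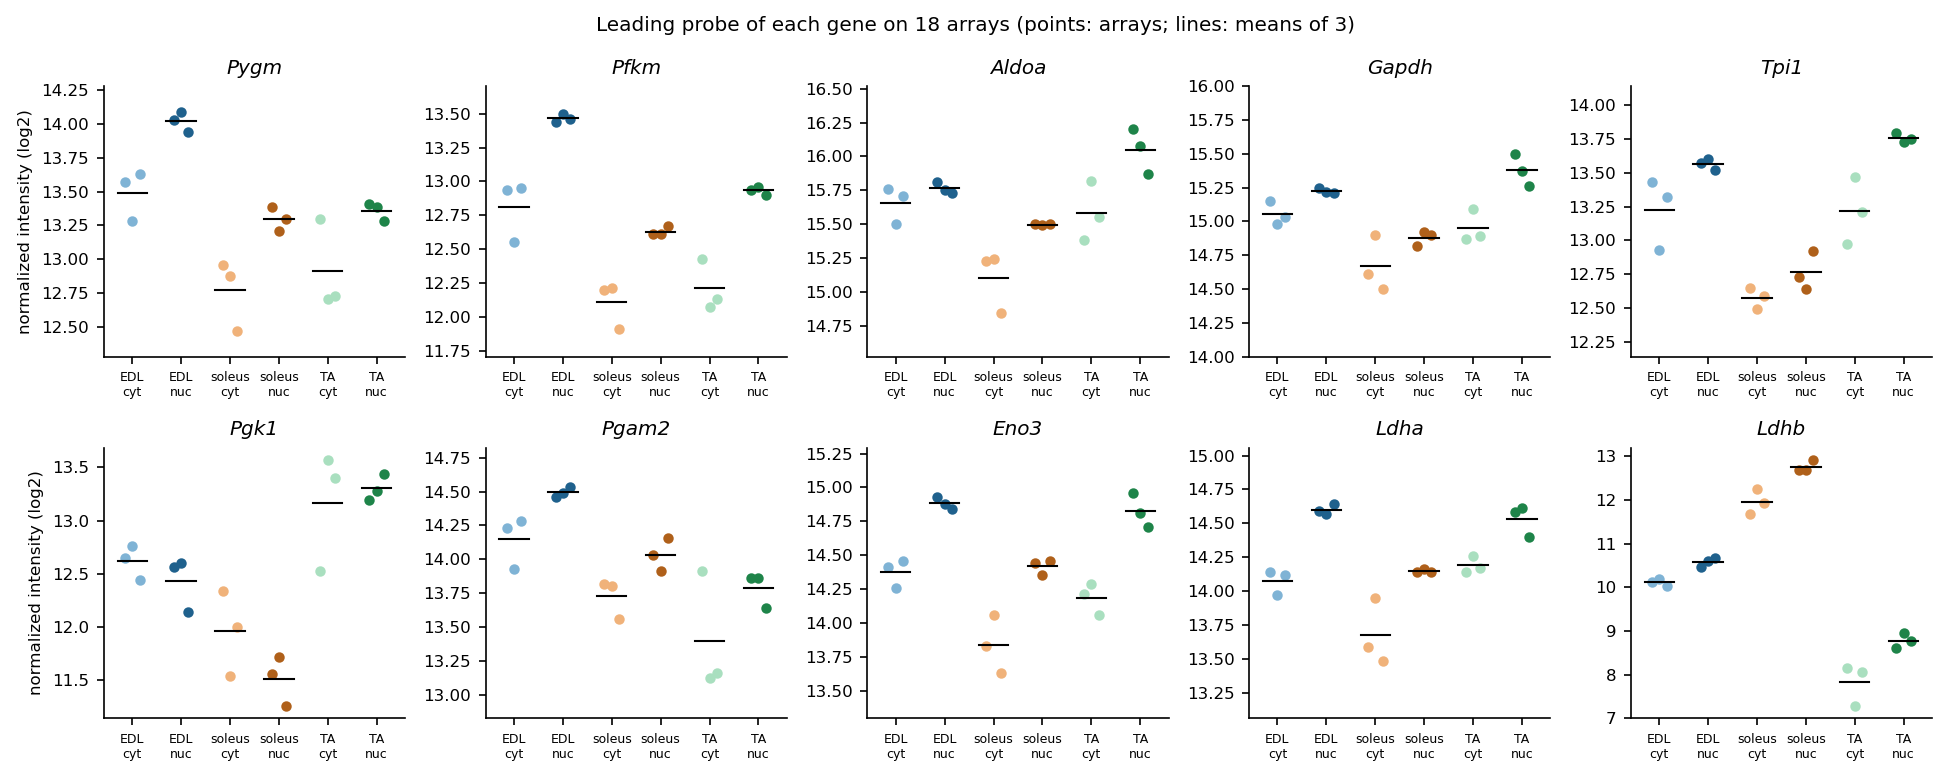
Normalized intensity (log2) of the leading probe of each of the 10 genes on the 18 arrays, by muscle and fraction; points are arrays and lines are means of 3. Ldhb is highest in soleus (11.67 to 12.92) and lowest in TA (7.28 to 8.96), while the soleus points of the other genes lie low against EDL.

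In glycogen breakdown, Pygm read 13.57, 13.28 and 13.63 in EDL cytoplasm and 12.96, 12.88 and 12.47 in soleus cytoplasm (normalized log2 intensity, replicates 1 to 3). In nuclei it read 14.03, 14.09 and 13.94 in EDL and 13.39, 13.21 and 13.30 in soleus. The muscles did not overlap in either fraction, and the difference of −0.72 in both missed the threshold (adjusted p = 0.0846 and 0.0883).

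Pfkm, the enzyme at the committed step, read 12.94, 12.55 and 12.95 in EDL cytoplasm against 12.20, 12.21 and 11.91 in soleus cytoplasm. Its nuclear values were 13.44, 13.50 and 13.46 in EDL and 12.61, 12.61 and 12.67 in soleus. Soleus was below EDL on every array, and Pfkm fell in both fractions, by 0.71 log2 units in the cytoplasm (SE 0.165, adjusted p = 0.0461), and it fell by 0.84 in the nuclei (SE 0.165, adjusted p = 0.0152). The cytoplasmic call held under 10 of 28 alternatives and the nuclear one under 19 of 28. In cytoplasm it was lost without any 1 nuclear array, any 1 soleus cytoplasm array, or EDL cytoplasm 1 or 3. With the shared mice as a replicate block the adjusted p was 0.121 and 0.0617, within ranges over all alternatives of 0.0085 to 0.628 and 0.00106 to 1.

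For Aldoa, EDL cytoplasm gave 15.76, 15.50 and 15.71 and soleus cytoplasm 15.23, 15.24 and 14.84, a difference of −0.55 (adjusted p = 0.145). Its nuclear arrays gave 15.81, 15.75 and 15.73 in EDL and 15.50, 15.49 and 15.50 in soleus, a difference of −0.27 (adjusted p = 0.759). The groups were apart in both fractions, but neither difference passed the test.

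Tpi1 (leading probe) read 13.43, 12.93 and 13.32 in EDL cytoplasm and 12.65, 12.49 and 12.59 in soleus cytoplasm, a difference of −0.65 (adjusted p = 0.0882). In nuclei it read 13.57, 13.60 and 13.52 in EDL and 12.73, 12.64 and 12.92 in soleus, and it fell by 0.80 (SE 0.175, adjusted p = 0.0297). The nuclear call was lost with the replicate block (adjusted p = 0.0735, over all alternatives 0.00425 to 1). The other Tpi1 probe, A_55_P1988424, differed by −0.64 and −0.98 and passed in neither fraction, with 1 soleus cytoplasm array, replicate 2, low at 12.14 beside 13.33 and 12.89.

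Gapdh, used in many laboratories as a reference gene, read 15.15, 14.98 and 15.03 in EDL cytoplasm and 14.61, 14.90 and 14.50 in soleus cytoplasm with its leading probe. The nuclear values were 15.25, 15.22 and 15.21 in EDL and 14.82, 14.92 and 14.90 in soleus. All 7 Gapdh probes pointed to lower values in soleus, from −0.22 to −0.52 in the cytoplasm and from −0.20 to −0.74 in the nuclei, and 0 of 7 passed the test in either fraction (adjusted p = 0.217 or higher).

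Pgk1 read 12.65, 12.76 and 12.44 in EDL cytoplasm and 12.34, 11.54 and 12.00 in soleus cytoplasm. In nuclei the values were 12.56, 12.60 and 12.14 against 11.56, 11.72 and 11.26. The differences of −0.65 (SE 0.268) and −0.92 (SE 0.268) had adjusted p = 0.278 and 0.132.

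Pgam2, the mutase subunit of muscle, read 14.23, 13.93 and 14.28 in EDL cytoplasm and 13.82, 13.80 and 13.56 in soleus cytoplasm, and 14.46, 14.49 and 14.53 against 14.03, 13.91 and 14.16 in nuclei. Eno3, the muscle enolase, read 14.41, 14.26 and 14.46 against 13.83, 14.06 and 13.63 in cytoplasm, and 14.93, 14.88 and 14.84 against 14.44, 14.35 and 14.46 in nuclei. Neither gene overlapped between the muscles. The differences were −0.42 and −0.46 for Pgam2 and −0.54 and −0.47 for Eno3, and 0 of these 4 passed the test.

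The lactate dehydrogenase subunits differed between the muscles in opposite directions. Ldhb, the H subunit, read 10.11, 10.20 and 10.02 in EDL cytoplasm and 11.67, 12.25 and 11.94 in soleus cytoplasm. In nuclei it read 10.47, 10.60 and 10.66 in EDL and 12.69, 12.69 and 12.92 in soleus. Every soleus array was above every EDL array, and Ldhb rose by 1.84 log2 units in the cytoplasm (SE 0.223, adjusted p = 0.00042) and by 2.19 in the nuclei (SE 0.223, adjusted p = 6.33e-05). Over all alternatives the adjusted p ran from 4.38e-05 to 0.0923 in the cytoplasm, where 26 of 28 called it, and from 4.25e-06 to 1 in the nuclei, where 27 of 28 did. Since 55 of the 60 probe bases also occur in the probe named Gm5514, the readings of these 2 names cannot be separated.

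The 3 Ldha probes differed in size of change but not in direction. A_55_P2141876, printed above, read 12.02, 11.60 and 11.68 in EDL cytoplasm and 10.70, 10.40 and 10.44 in soleus cytoplasm, and 12.23, 12.26 and 12.12 against 11.02, 10.81 and 10.94 in nuclei. It fell by 1.26 (SE 0.194, adjusted p = 0.00322) in the former and fell by 1.28 (SE 0.194, adjusted p = 0.00195), called under 26 and 27 of 28 alternatives (adjusted p 0.000503 to 0.275 and 0.000128 to 1). A_55_P2141878 differed by −0.73 in the cytoplasm (adjusted p = 0.175) and fell by 1.13 in the nuclei (SE 0.242, adjusted p = 0.0273), a call lost with the replicate block (adjusted p = 0.0651, over all alternatives 0.00275 to 1). The leading Ldha probe read 14.14, 13.97 and 14.12 against 13.59, 13.95 and 13.48 in cytoplasm and 14.59, 14.57 and 14.64 against 14.14, 14.16 and 14.14 in nuclei. Its differences of −0.40 and −0.45 did not pass (adjusted p = 0.256 and 0.249), and whether the probes differed from each other was not tested.

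**Figure D2:**
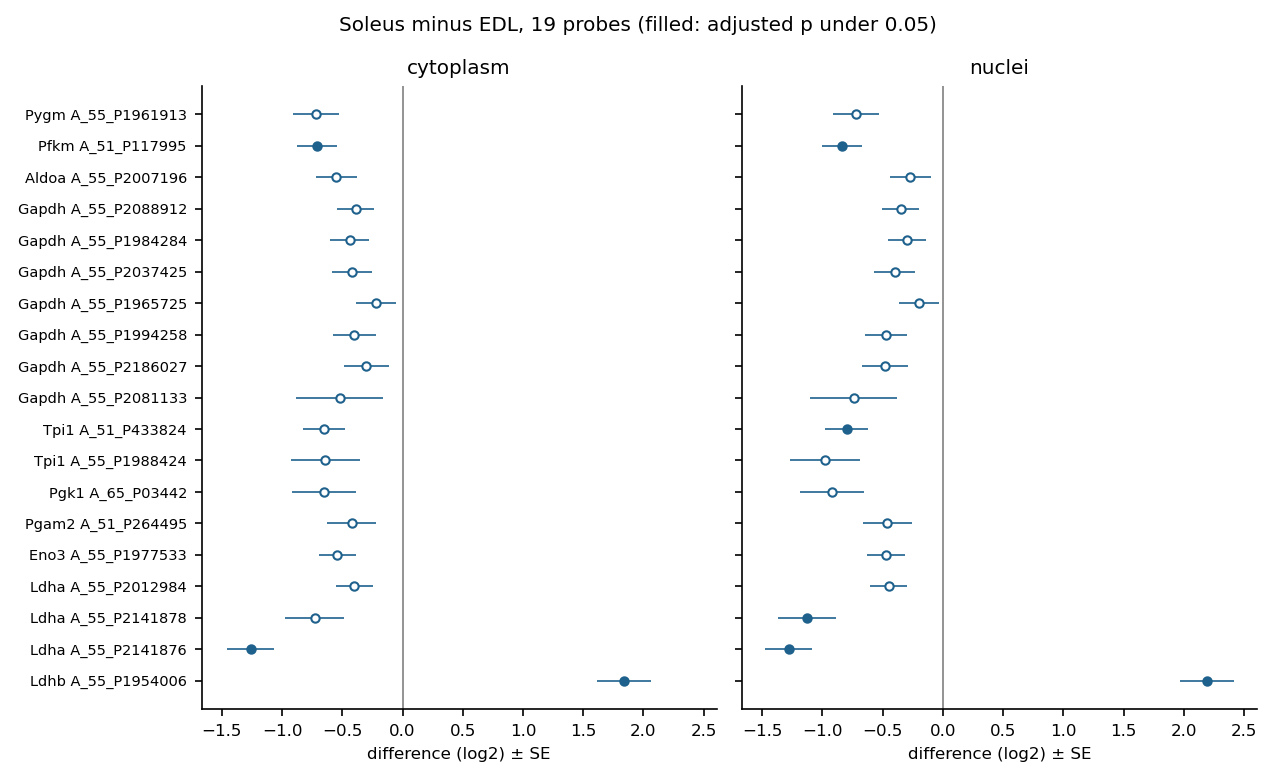
Difference soleus minus EDL (log2) with its standard error for the 19 probes, in cytoplasm and in nuclei; filled points had adjusted p under 0.05. Of 19 probes, 18 lie left of 0 in both panels and Ldhb alone lies right of it, at 1.84 and 2.19.

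Within slide 2 alone, which held the 6 EDL and soleus nuclear arrays, 16 of the 19 probes passed the test, 1 higher and 15 lower. The share of all probes called in that fit is not given here, so this count cannot be set against it. Within slide 1, which held the 6 cytoplasmic arrays of these muscles and 1 TA array, 0 of 19 passed in limma, and Ldhb had an adjusted p of 0.0923. Why the slides differed in calls was not tested. With the mice as a replicate block, Ldhb and Ldha A_55_P2141876 alone passed, in both fractions. Counting each muscle's 3 nuclear arrays as a single sample left 0 calls.

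The rest of the pathway was read from a list of 47 other genes, by the probe of each with the highest mean. Soleus cytoplasm was called lower than EDL for 7 of 44 genes tested and higher for 0 (limma). In nuclei 10 of 44 fell and 1 rose. Over all probes tested, 0.57% fell and 0.853% rose in cytoplasm, and 0.579% fell and 0.978% rose in nuclei. The median difference of the list was −0.22 in cytoplasm and 0.01 in nuclei. Among the genes called, the largest differences were those of Gpd1, Slc16a3 and Pfkfb3. Gpd1, the cytosolic glycerol phosphate dehydrogenase that regenerates NAD, differed by −2.29 in cytoplasm and −2.56 in nuclei. Slc16a3, a lactate exporter, differed by −2.25 and −2.11, and Pfkfb3, which makes the activator of phosphofructokinase, by −2.18 and −2.02. Pdk4 read higher in soleus nuclei (11.41, 11.59 and 11.60) than in EDL nuclei (9.24, 9.28 and 9.98) but was not called. Gpd1 read 12.03, 11.63 and 12.07 in EDL cytoplasm and 9.95, 9.76 and 9.16 in soleus cytoplasm, without overlap. Phka1 and Phkg1, subunits of the kinase that activates the phosphorylase, were also among the genes that fell in the cytoplasm (−1.80 and −1.31). The nuclear gene that rose was Gbe1, the glycogen branching enzyme (1.10), from 9.24, 9.32 and 9.22 in EDL to 10.34, 10.31 and 10.43 in soleus.

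The second comparison asked how each transcript was placed between the nuclear and the cytoplasmic fraction. Both fractions were brought to 1 common distribution, so a difference is relative to the rest of the array and says nothing of the amount of RNA in a fraction. In EDL, 4 member probes rose in nuclei and 0 fell, beside 20% and 26.5% of 43669 probes. In soleus 5 rose and 0 fell (18.7% and 21.7% of 43620 probes), and in TA 8 rose and 0 fell (19.2% and 33.5% of 43699 probes). The member shares called higher were 21.1%, 26.3% and 42.1%. An unadjusted p under 0.05 was found for 6, 6 and 11 of the 19, beside 23468, 21437 and 25413 of all probes tested. Groups did not overlap, with nuclei higher, for 13, 11 and 10 of the 19 probes, against 31.5%, 28.3% and 22.2% of all probes.

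Pfkm rose in the nuclei of all 3 muscles, by 0.65 in EDL (adjusted p = 0.00456), 0.53 in soleus (adjusted p = 0.0194) and 0.72 in TA (adjusted p = 0.00189), each with SE 0.165. Its lowest nuclear value in EDL, 13.44, exceeded the highest cytoplasmic one, 12.95, and the same held in soleus (12.61 against 12.21) and TA (12.90 against 12.43). Eno3 also rose in all 3, by 0.51, 0.58 and 0.64 (SE 0.157, adjusted p = 0.0155, 0.00883 and 0.00316), with TA values of 14.21, 14.29 and 14.06 in cytoplasm and 14.96, 14.81 and 14.71 in nuclei. Eno3 was called under 22 of 27 alternatives in EDL, 24 of 27 in soleus and 26 of 29 in TA. With the 75th percentile as the scale its differences were −0.03, −0.16 and 0.27. The EDL call of Eno3 was also lost without EDL cytoplasm 2 or EDL nuclei 1. Over all alternatives the adjusted p of Pfkm ran from 0.000358 to 0.294 in EDL, 1.66e-05 to 0.447 in soleus and 0.000136 to 0.209 in TA.

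Pygm rose by 0.53 in both EDL and soleus (SE 0.192, adjusted p = 0.0338 and 0.0382) and differed by 0.45 in TA (adjusted p = 0.0626). Both Pygm calls depended on the setting: with the 75th percentile as the scale the differences were 0.04 and 0.03 (adjusted p = 0.892 and 0.916), and each was called under 19 of 27 alternatives (adjusted p 0.0111 to 0.892 and 0.000176 to 0.916). The EDL call was lost without any 1 of EDL cytoplasm 1 or 2 or the EDL nuclear arrays, and the soleus call without soleus cytoplasm 3, EDL nuclei 1 or any soleus nuclear array. The leading Ldha probe rose by 0.52 in EDL and by 0.47 in soleus (SE 0.156, adjusted p = 0.0124 and 0.0251) and differed by 0.34 in TA (adjusted p = 0.0763). The soleus call was lost with the replicate block (adjusted p = 0.0521, over all alternatives 0.00022 to 0.476) and in the mean over the 3 Ldha probes (0.27, adjusted p = 0.185). In TA the leading probe read 14.14, 14.26 and 14.17 in cytoplasm and 14.58, 14.61 and 14.40 in nuclei, which did not overlap. The other 2 Ldha probes passed in no muscle, and A_55_P2141878 differed by 0.34, −0.06 and 0.00. Ldhb rose by 0.81 in soleus (SE 0.223, adjusted p = 0.0093) and by 0.95 in TA (SE 0.223, adjusted p = 0.00226), where it went from 8.15, 7.28 and 8.06 in cytoplasm to 8.61, 8.96 and 8.77 in nuclei. In EDL its difference of 0.47 had adjusted p = 0.0986.

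Aldoa, the leading Tpi1 probe and 3 Gapdh probes passed the test in TA and in neither other muscle. In TA the replicate block grouped arrays by replicate number, and replicate 3 of the fractions came from different mice. Aldoa rose by 0.47 (SE 0.172, adjusted p = 0.0317), from 15.38, 15.82 and 15.55 to 16.20, 16.08 and 15.87. On slide 3 alone, which held TA cytoplasm replicate 2 and the TA nuclei, its difference was 0.23 (adjusted p = 0.37), and 18 of 29 alternatives called it (adjusted p 0.0097 to 0.565), not among them the replicate block (0.0518), no scaling (0.18, adjusted p = 0.43) or the fits without TA cytoplasm 1 or 3 or TA nuclei 1 or 2. The leading Tpi1 probe rose by 0.54 (SE 0.175, adjusted p = 0.0169), from 12.97, 13.47 and 13.21 to 13.79, 13.73 and 13.75, while Tpi1 A_55_P1988424 differed by 0.04 (adjusted p = 0.92) and the mean of both Tpi1 probes by 0.29 (adjusted p = 0.196). The leading probe differed by 0.28 on slide 3 alone (adjusted p = 0.168) and by 0.41 without TA cytoplasm 1 (adjusted p = 0.0573), with adjusted p from 0.00418 to 0.352 over the alternatives, 23 of 29 of which called it. Of the 7 Gapdh probes, 3 rose in TA, by 0.43 to 0.52, and 0 did in EDL or soleus, where differences ran from −0.07 to 0.45. The leading one lost its TA call with the replicate block (adjusted p = 0.0559) and on slide 3 alone (0.29, adjusted p = 0.227), with adjusted p from 0.00121 to 0.919 over all alternatives. Pgam2 differed by 0.35, 0.31 and 0.39 and Pgk1 by −0.18, −0.45 and 0.14 in EDL, soleus and TA, with no call. Whether muscles differed in their fraction difference was tested by the interaction of muscle and fraction. In limma 0 of the 19 probes passed, with the smallest p at 0.309 (adjusted p = 0.638), while 1.57% of 40541 probes passed. An unadjusted p under 0.05 was found for 0 of the 19 and for 6768 of all probes tested.

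**Figure D3:**
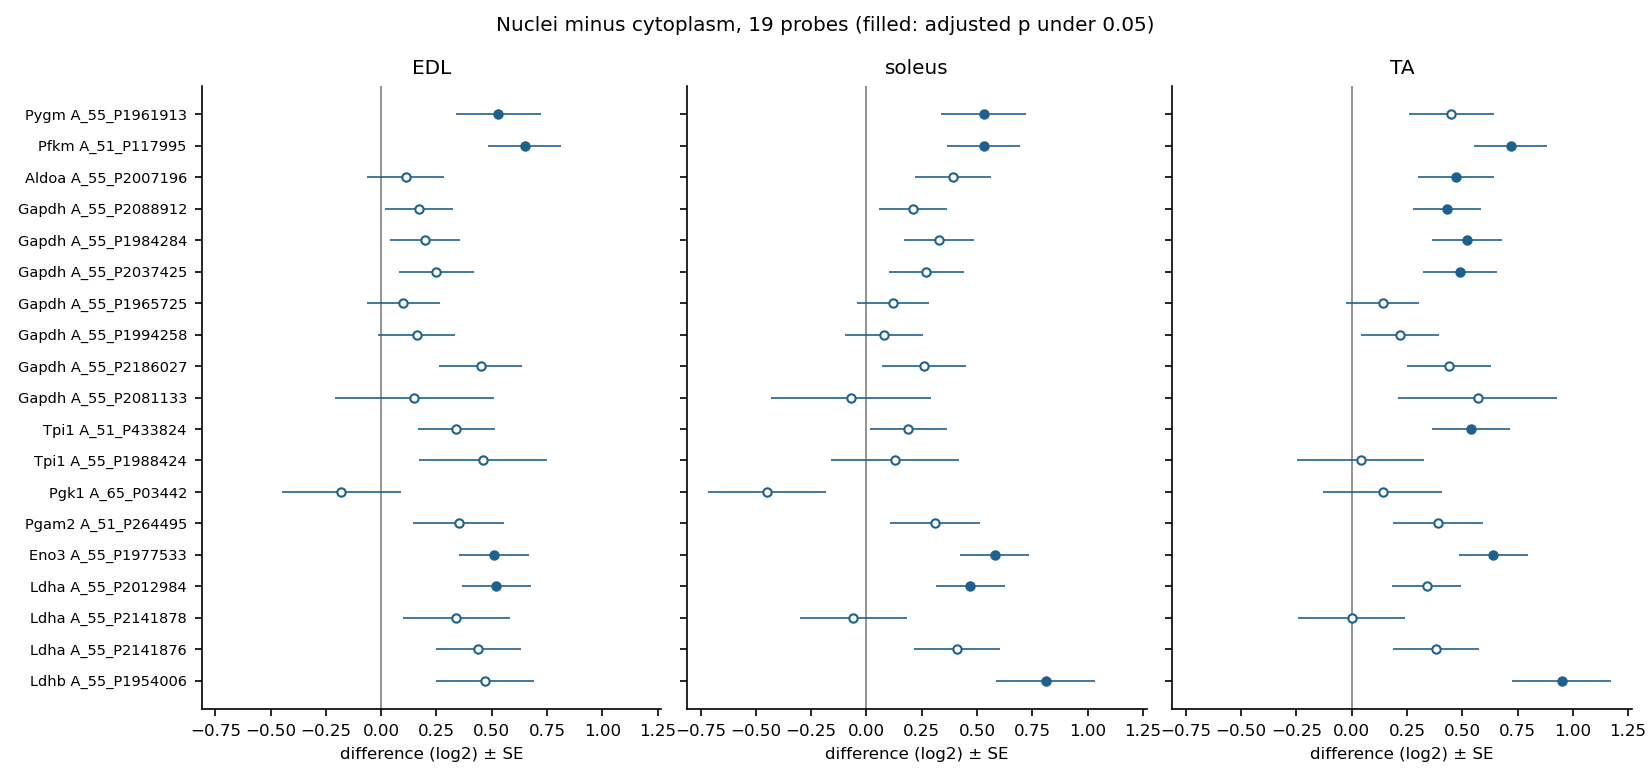
Difference nuclei minus cytoplasm (log2) with its standard error for the 19 probes in EDL, soleus and TA after quantile scaling; filled points had adjusted p under 0.05. Filled points number 4, 5 and 8 and all lie right of 0, while Pgk1 lies at −0.18, −0.45 and 0.14; with the 75th percentile as the scale several points change side.

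The side on which these probes fell depended on how arrays were brought to a common scale. The median difference of the leading probes was 0.41, 0.43 and 0.46 in EDL, soleus and TA, with −0.05, −0.01 and −0.22 over all probes. With each array scaled to its 75th percentile it was −0.05, −0.20 and 0.22, with −0.29, −0.26 and −0.45 over all probes. Set against the median of all probes in the same setting, the leading probes lay 0.46, 0.44 and 0.68 higher with quantile scaling and 0.24, 0.06 and 0.67 higher with the 75th percentile. The 75th percentile of the processed signal was 119.1 to 162.9 on the EDL and soleus cytoplasmic arrays, 221.5 to 299.8 on their nuclear arrays, and 140.9 to 203.6 on TA arrays of either fraction. On that scale 0 EDL probes passed, 0 soleus probes rose and 6 fell, and 3 TA probes rose. Over all probes it called 22375 of 43669, 19859 of 43620 and 25306 of 43699, of which 31.4%, 32.4% and 29.7% were higher in nuclei. Without any scaling the calls were 9 in EDL, 17 in soleus and 6 in TA. Over all probes 22268, 27107 and 22924 were then called, of which 69.5%, 92.3% and 44.2% were higher in nuclei. In EDL and soleus fraction and slide coincided and cannot be told apart.

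**Figure D4:**
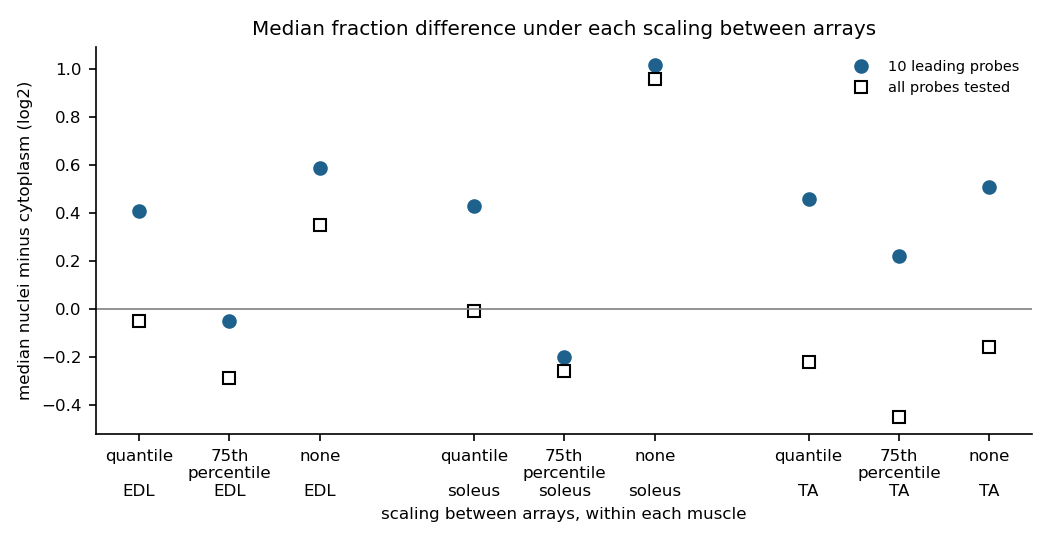
Median difference nuclei minus cytoplasm (log2) of the 10 leading probes (filled circles) and of all probes tested (open squares) under 3 ways of scaling arrays, for each muscle. The leading probes lie above the median of all probes in all 9 settings, by 0.06 to 0.68, while their own median falls below 0 in EDL and soleus with the 75th percentile.

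Among the 47 other pathway genes, 10 rose and 4 fell in EDL nuclei of 43 tested. In soleus 7 rose and 2 fell of 43, and in TA 14 rose and 4 fell of 45. Over all probes tested, 20% rose and 26.5% fell in EDL nuclei, 18.7% and 21.7% in soleus, and 19.2% and 33.5% in TA. Pfkfb3 rose in all 3, by 1.07, 1.23 and 2.03. The list median was 0.40, 0.35 and 0.44. Marker lists of other cells, of 3 genes each, differed between the fractions too, and not in 1 direction. Fibroblast genes were called higher in nuclei for 3 of 3 in each muscle, with summed signals of 13.62 to 14.70 in nuclei and 12.28 to 14.09 in cytoplasm. Endothelial genes were higher for 3 of 3 in EDL and TA and 0 of 3 in soleus (11.50 to 11.97 and 9.64 to 11.55). Macrophage genes were lower for 1, 1 and 2 of 3 in EDL, soleus and TA (11.24 to 11.47 and 11.46 to 12.74). Erythroid genes were called for 0 of 3 in EDL, lower for 3 of 3 in soleus and higher for 2 of 3 in TA (12.59 to 13.61 and 12.99 to 14.74). Their part in the enzyme values was not tested.

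The third comparison set TA against the other 2 muscles. Against EDL, 1 member probe was called higher and 4 lower in cytoplasm (5.12% and 7.33% of 46398 probes), and 2 higher and 7 lower in nuclei (7.59% and 9.81% of 43303). Against soleus, 7 were higher and 1 lower in cytoplasm (15.8% and 12.8% of 45660), and 9 higher and 1 lower in nuclei (7.75% and 11.9% of 43529). The Ldhb probe was the 1 lower in both, by 17.4-fold in cytoplasm (−4.12, SE 0.223, adjusted p = 2.72e-08) and 15.8-fold in nuclei (−3.99, SE 0.223, adjusted p = 3.02e-08). It passed under all 28 and all 27 alternatives run for these 2 differences, with adjusted p from 2.49e-09 to 0.0225 and from 1.4e-09 to 0.0429. Against EDL it fell by 2.28 in cytoplasm and it fell by 1.80 in nuclei (adjusted p = 8.87e-05 and 0.000268). The order of Ldhb from high to low was soleus, EDL, TA in both fractions, with each neighbouring pair apart.

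Against EDL, the probes that fell in TA besides Ldhb were Pfkm, Pgam2 and Ldha A_55_P2141876 in both fractions. Pfkm read 12.43, 12.07 and 12.13 in TA cytoplasm and 12.94, 12.96 and 12.90 in TA nuclei, with differences of −0.60 and −0.54 from EDL (adjusted p = 0.0283 and 0.0377). Pgam2 differed by −0.75 and −0.71 (SE 0.204, adjusted p = 0.028 and 0.0287), at 13.86, 13.86 and 13.64 in TA nuclei. Its calls held under 21 of 28 and 18 of 27 alternatives. In cytoplasm the Pgam2 call was lost with slide as a random block (adjusted p = 0.203). It was also lost without EDL cytoplasm 1 or 3 or TA cytoplasm 2 or 3, and within slide 1 the difference was −0.24. Ldha A_55_P2141876 read 11.56, 10.81 and 11.06 in TA cytoplasm and 11.51, 11.58 and 11.48 in TA nuclei, between soleus and EDL, with differences of −0.62 and −0.68 from EDL. In nuclei alone Pygm (−0.66, adjusted p = 0.0302), Tpi1 A_55_P1988424 (−1.15, adjusted p = 0.0155) and Ldha A_55_P2141878 (−0.82, adjusted p = 0.0317) fell as well, with Pygm at 13.41, 13.39 and 13.28 in TA nuclei. With the replicate block the calls of Pfkm (adjusted p = 0.054 and 0.0689, over all alternatives 0.00453 to 0.76 and 0.00805 to 0.999) and of Ldha A_55_P2141876 in cytoplasm (0.0548, over all alternatives 0.00228 to 0.854) were lost. Of 4 general myofiber markers (Acta1, Ckm, Mb and Ttn), 0 were called in TA against EDL in cytoplasm and 2 were called lower in nuclei, with medians of −0.56 and −0.77 and summed signals of 15.01 to 15.37 against 15.44 to 15.74 in cytoplasm and 15.56 to 15.79 against 16.11 to 16.17 in nuclei. Their part in the enzyme values was not tested.

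Against soleus, the leading Tpi1 probe rose in TA by 0.64 in cytoplasm and 1.00 in nuclei (adjusted p = 0.0148 and 0.00157, over all alternatives 0.00258 to 0.538 and 0.000162 to 0.999). The other Tpi1 probe differed by −0.08 and −0.17, and the mean of both by 0.28 (adjusted p = 0.264) and 0.41 (adjusted p = 0.126). Ldha A_55_P2141876 rose by 0.63 and 0.60, while the leading Ldha probe rose in cytoplasm (0.51) and Aldoa in nuclei (0.55, adjusted p = 0.0601 with the replicate block and 0.00497 to 0.999 over all alternatives, and −0.02 without scaling between arrays). The other probes higher in TA than in soleus were 3 of the 7 Gapdh probes in cytoplasm and 5 in nuclei, and Pgk1.

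TA and the other muscles were for the most part on different slides, and TA cytoplasm replicate 1, on slide 1 beside EDL and soleus, did not read like the other TA arrays. Of the 19 probes, 14 read nearer to the EDL cytoplasm mean on this array than to the mean of TA cytoplasm replicates 2 and 3. Gapdh A_55_P2081133 read 12.05 on it, 0.01 from the EDL mean, beside 14.04 and 13.90 on the other TA cytoplasm arrays and 13.80 to 14.01 in TA nuclei. Pgk1 read 12.53 on it beside 13.57 and 13.40, with 13.19 to 13.44 in nuclei. In the other direction, Tpi1 A_55_P1988424 read 13.36 beside 12.47 and 12.29, and Pgam2 13.91 beside 13.12 and 13.16. Of the 19 probes, 5 lay over 0.5 log2 units above the other TA cytoplasm arrays and 3 over 0.5 below. Ldhb kept to TA there, at 8.15 beside 7.28 and 8.06.

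Gapdh A_55_P2081133 was called higher in TA against EDL (1.29 in cytoplasm and 1.71 in nuclei) and against soleus (1.82 and 2.46), and Pgk1 against soleus (1.21, SE 0.268, adjusted p = 0.00509, and 1.79, SE 0.268, adjusted p = 0.000503) and, in nuclei, against EDL (0.87, SE 0.268, adjusted p = 0.0382). Within slide 1, where 1 TA array stood against 3 of each other muscle and was taken to vary like them, 0 of 19 probes passed for TA against EDL and 1 against soleus. That probe was Ldhb, at −3.80 (adjusted p = 0.0225). Pgk1 differed from EDL by −0.09 there. Leaving TA cytoplasm replicate 1 out raised the calls of TA against EDL in cytoplasm from 5 to 11. Of the satellite cell markers, Cdh15 followed the same arrays. Cdh15 read 6.60 on TA cytoplasm replicate 1 and 6.26 to 7.00 on the EDL and soleus arrays, but 12.53 and 11.55 on TA cytoplasm replicates 2 and 3 and 11.88 to 12.19 in TA nuclei. The summed signal of the 3 markers was 6.80 to 12.54 in TA cytoplasm, 11.89 to 12.21 in TA nuclei and 6.38 to 7.29 in EDL and soleus. That sum rests on Cdh15, since Myf5 was well above background on 0 arrays and Pax7 on 8, and Pax7 overlapped between TA nuclei (4.79 to 5.98) and soleus nuclei (4.71 to 5.23). Their part in the enzyme values was not tested.

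**Figure D5:**
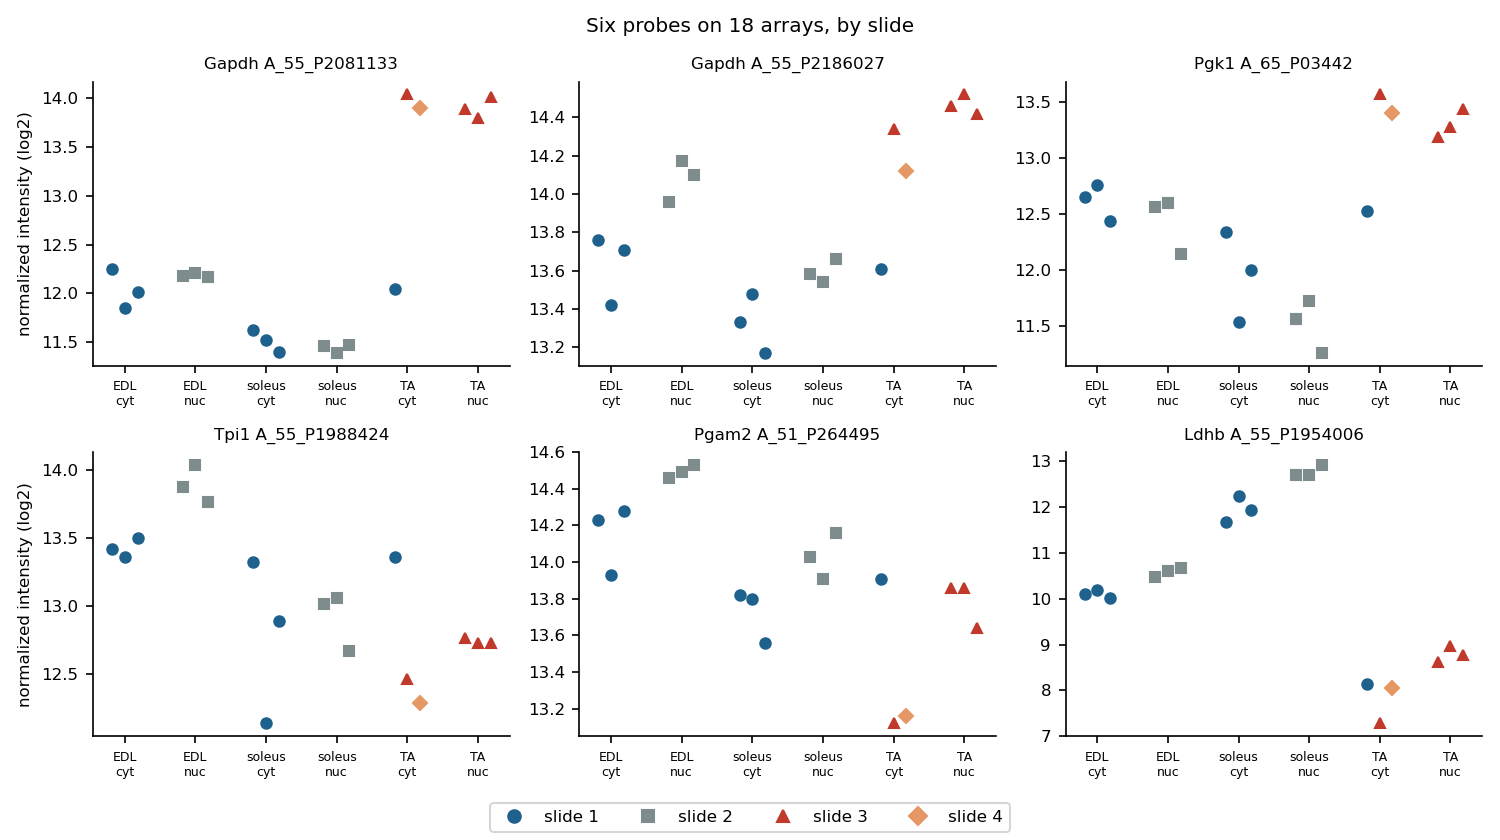
Normalized intensity (log2) of 6 probes on the 18 arrays by muscle and fraction; marker shape and colour give the slide. For Gapdh A_55_P2081133 and A_55_P2186027, Pgk1 and Tpi1 A_55_P1988424 the TA cytoplasm array on slide 1 lies within the range of the EDL cytoplasm arrays of that slide, for Pgam2 it lies at 13.91 below them (13.93 to 14.28), and Ldhb stays low, at 8.15.

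The Gapdh probes gave TA differences of unequal size. The leading Gapdh probe read 14.87, 15.09 and 14.89 in TA cytoplasm and 15.50, 15.37 and 15.26 in TA nuclei, and passed only in nuclei against soleus (0.50, adjusted p = 0.0342, lost with the replicate block at 0.0662, over all alternatives 0.0032 to 0.999) among the 4 comparisons with TA. A_55_P2081133 overlaps A_55_P2186027 over 51 bases on chromosome 6, yet the probe letters differ at 5 of them, which is why a window of 30 of these bases is shown (chr6:125111899-125111928, minus strand, mm9), with the 4 bases that differ in capitals:
Gapdh A_55_P2081133: gGgcctagggagccctCcctaTtctTttga
Gapdh A_55_P2186027: gAgcctagggagccctAcctaCtctCttga

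Over this stretch A_55_P2186027 was called higher in TA than in soleus as well, by 0.69 in cytoplasm and 0.87 in nuclei (SE 0.188, adjusted p = 0.0143 and 0.00541), less than the 1.82 and 2.46 of A_55_P2081133. The Gapdh probes at the highest coordinates on chromosome 6, A_55_P1965725 and A_55_P1994258, passed in none of the 9 comparisons between groups. Which transcripts each Gapdh probe binds was not tested.

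Among the 47 other genes, Eno1, the widely expressed enolase, was higher in TA than in both other muscles, by 2.05 and 2.15 in cytoplasm and by 3.17 and 3.29 in nuclei against EDL and soleus. Its TA cytoplasm arrays read 11.12, 14.56 and 14.25, so that replicate 1 lay at the level of EDL (11.08 to 11.43) and soleus (10.92 to 11.48), and without that array the cytoplasmic differences were 3.15 and 3.24. Pdk4, the kinase that restrains pyruvate oxidation, fell in TA against soleus, with differences of −3.36 in cytoplasm (7.48 against 10.84) and −4.07 in nuclei (7.46 against 11.53). On TA cytoplasm replicate 1 Pdk4 read 10.08 beside 5.44 and 6.93, and without it the cytoplasmic difference from soleus was −4.65. In all, TA against EDL gave 3 higher and 9 lower of 46 tested in cytoplasm and 6 and 8 of 43 in nuclei. TA against soleus gave 12 higher and 10 lower of 44 in cytoplasm and 14 and 5 of 44 in nuclei. Over all probes tested, 5.12% were higher and 7.33% lower against EDL in cytoplasm, and 7.59% and 9.81% in nuclei. Against soleus the shares were 15.8% and 12.8% in cytoplasm and 7.75% and 11.9% in nuclei.

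Across the 18 arrays the leading probes did not form a single profile. Pygm followed Pfkm (r = 0.97) and Pgam2 (r = 0.89), Aldoa followed Gapdh (r = 0.95), and Pgk1 ran against Ldhb (r = −0.92) and was unrelated to Pygm (r = −0.05). These values share muscle, fraction and slide and are given as a description. Among 24593 genes, the profiles most like the mean of the 9 genes other than Ldhb were Prkab2, a subunit of the AMP-activated kinase (r = 0.978), Gm10290 (0.971), Gm7251 (0.96), NAP062956-1 (0.95) and NAP063231-1 (0.95). Gm7251 shared a run of 20 bases with a Gapdh probe. Closest to Ldhb were Gm5514 (0.997, with the shared 55 bases), the mitochondrial enzymes Idh2 and Nnt (0.991 each), Tpm3, a slow tropomyosin gene (0.979), and Fgf1 (0.979).

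The promoters of both lactate dehydrogenase genes are shown because these genes differed in opposite directions between soleus and EDL. They are RefSeq sequences of GRCm38.p6, the 250 bases before a start. Capitals mark stretches holding ACGTG or its reverse complement CACGT, a form of the core letters of the element bound by hypoxia-inducible factors. These letters also lie inside CACGTG, the E-box letters:
Ldha chr7:46845554-46845803, plus strand: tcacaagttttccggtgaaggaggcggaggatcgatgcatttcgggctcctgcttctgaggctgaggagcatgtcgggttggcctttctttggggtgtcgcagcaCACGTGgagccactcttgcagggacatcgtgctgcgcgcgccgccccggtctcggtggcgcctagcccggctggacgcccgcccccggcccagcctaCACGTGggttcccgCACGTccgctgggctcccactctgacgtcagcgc
Ldhb chr6:142507958-142508207, minus strand: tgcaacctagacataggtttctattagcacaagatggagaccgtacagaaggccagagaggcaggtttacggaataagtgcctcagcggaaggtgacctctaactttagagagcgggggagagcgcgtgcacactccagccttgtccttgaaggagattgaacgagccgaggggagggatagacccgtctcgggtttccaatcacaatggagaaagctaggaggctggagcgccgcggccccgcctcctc

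ACGTG or CACGT occurred in 16.6% of 32851 promoters of this length and in 7 of 16 starts listed for the 10 members, from 5 genes. The Ldha start shown held 3 stretches, 2 of them CACGTG, and the other Ldha start held none. Aldoa, Pfkm, Pygm and Pgk1 each had a start with the letters, and they were not in the windows of Ldhb, Gapdh, Tpi1, Pgam2 and Eno3. The other form of the core, GCGTG or its reverse complement CACGC, was not searched for. It occurs in the Ldhb window shown and in the other Ldha start. The contrast in marked letters between these windows is therefore limited to ACGTG and CACGT. A match is a description of the sequence and not a site of binding.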

How the data were processed

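RNA of 18 fiber pools was labelled with Cy3 and hybridised to one-colour Agilent arrays of 62976 spots. Per the file headers and the submitters' processing notes, the authors read intensities with Agilent Feature Extraction 10.7.3.1, and the deposited processed intensity is corrected for background. The deposited matrix holds the authors' quantile-normalized intensities on a linear scale for 3668 probe names, 4 of them members, and served as an alternative only. The study's methods state quantile normalization and a significance analysis of microarrays, in place of which limma was used here.

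Processed intensities, after removal of 3671 control spots, of spots flagged as outliers and of spots not positive and significant against background, were put on the log2 scale, quantile normalized between arrays and averaged over spots of a probe. One model of 6 group means was fitted to all probes (limma 3.58.1, R 4.3.3), testing probes with values on at least 2 of 3 arrays in each group compared, and p-values were adjusted over all tested probes by the Benjamini-Hochberg method with a threshold of 0.05. Every member probe was described, and values by array were given for the leading probe of each gene. Other pathway genes were named by the largest differences among those called, and likeness was Pearson's r over leading probes. A gene with several probes on a list was read by the brightest. Cdh15, Phkg1 and the remaining Gapdh, Ldha and Tpi1 probes were named after their values were seen. The members and lists were chosen with earlier results of these data known. The steps were tested on simulated data.

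EDL and soleus samples with 1 number came from the same mice by the labels, so numbers pair these muscles. Across 35528 probes the deviations of same-numbered samples correlated at −0.11 to 0.13. Figures were drawn with matplotlib 3.10.9 (Python 3.11.15).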

Additional observations from a re-analysis of the deposited data

How the results depend on the processing

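Ldhb in TA against soleus passed under every alternative run. Treating saturated spots as missing changed no call of a leading probe, but no member spot was saturated, so that setting tests little. Direction depended on scaling in the fraction comparison. With the 75th percentile, Eno3 was −0.03 and Ldha −0.01 in EDL, Eno3 −0.16, Ldha −0.24, Aldoa −0.48 and Gapdh −0.63 in soleus, and Aldoa −0.12 and Gapdh −0.02 in TA, and without scaling Aldoa was −0.02 in nuclei of TA against soleus. By construction these settings keep each array's own distribution. For all other changes the cause was not tested.

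The numbers of member probes called were as follows, here without the share of all probes called in the same setting. For nuclei against cytoplasm, the 75th percentile gave 0 in EDL and 3 in TA, and in soleus 0 higher and 6 lower, none of which were among the 5 called higher with quantile scaling. No scaling gave 9 in EDL and 17 in soleus, normexp background correction 8 in EDL, a requirement of signal well above background 7 in EDL and 8 in soleus, no filter on dim spots 13 in TA, and slide 3 alone 5. Slide as a random block gave 0 in EDL and 0 in soleus. For soleus against EDL in cytoplasm, no scaling gave 5, normexp 10, slide as a random block 5 and slide 1 alone 0. In nuclei, no scaling gave 2, normexp 11 and slide 2 alone 16. For TA against EDL, slide as a random block gave 1 in cytoplasm and 0 in nuclei, slide 1 alone 0 and the 75th percentile 3 in nuclei. For TA against soleus, slide as a random block gave 4 in cytoplasm and 1 in nuclei, slide 1 alone 1 and no scaling 3 in nuclei. In the deposited matrix, which held 4 of the Gapdh probes among those tested, 0 passed for TA nuclei against cytoplasm and 0 for TA against soleus in nuclei. With the replicate block the calls were 2 for soleus against EDL in each fraction and 3 for TA against EDL in cytoplasm, and of the leading-probe results 80 of 90 kept their side of the threshold and 10 lost it. Counting each muscle's nuclear arrays as a single sample, chosen after seeing the data, left 0 calls in every comparison except 1, Ldhb, in TA against soleus in each fraction.

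Leaving out 1 array at a time gave 2 to 6 calls for nuclei against cytoplasm in EDL, 2 to 7 in soleus and 5 to 10 in TA, 2 to 5 and 2 to 9 for soleus against EDL in cytoplasm and nuclei, 1 to 11 and 2 to 9 for TA against EDL, 4 to 9 and 6 to 12 for TA against soleus, and 0 for the interaction. Calls fell to 2 in EDL without EDL cytoplasm 2 or EDL nuclei 1, to 2 in soleus without soleus cytoplasm 3 or soleus nuclei 3 and to 3 without soleus nuclei 1 or 2, and to 5 in TA without TA nuclei 1 or 2. Without TA cytoplasm 1 they rose to 5 and 9 for soleus against EDL and to 11 for TA against EDL in cytoplasm. The latter fell to 1 without EDL cytoplasm 1 or 3 or TA cytoplasm 2 or 3, and to 3 without EDL cytoplasm 2. TA against soleus in cytoplasm fell to 4 without TA cytoplasm 2 and to 5 without soleus cytoplasm 3. Nuclear comparisons fell to 2 for soleus against EDL without any 1 array of either, to 2 or 3 for TA against EDL likewise, and to 6 for TA against soleus without any soleus array or TA nuclei 1 or 2.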
